A study of Danio rerio with 2 samples.

Results

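LH gonadotropes are the pituitary cells that make luteinizing hormone, a heterodimer of the common alpha subunit and the beta subunit encoded by lhb. The cells described here are those that the authors' deposited annotation of the female zebrafish pituitary names LH gonadotropes, and all of them were taken. They were 835 of 6988 annotated cells, of which 603 of 4794 came from gnrh3-/- females and 232 of 2194 from WT females. The gnrh3-/- fish lacked Gnrh3, the hypophysiotropic gonadotropin-releasing hormone of zebrafish, and the WT fish were their siblings. All were sexually mature females of 3 months, and 5 pituitaries were pooled per genotype before the morning lights came on. Each pool gave 1 droplet library, so neither genotype had a biological replicate and every comparison below is a description without a test.

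Gonadotropes receive hypothalamic peptides and sex steroids, and in mammals a single cell can make both LH and FSH. In teleosts the hormones are made largely by separate cells, of which the LH cells drive final oocyte maturation and ovulation through a pulse of secretion from stored granules. GnRH receptors of this lineage couple mainly to Gq and calcium, and some also to cAMP. For zebrafish Gnrhr2 the study cites work in vitro in which Gnrh3 set off no cAMP signalling.

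Levels are given as UMIs (unique molecular identifiers, 1 count per captured transcript) of a gene per 10000 UMIs, over all cells that share a type and a library. The kit reads the 3′ end of transcripts, so a level does not depend on transcript length. The LH gonadotropes of the gnrh3-/- library held 5263877 UMIs, with a median of 8250 UMIs and 1767 genes per cell. Those of the WT library held 3805265 UMIs, with medians of 15651.5 UMIs and 2520.5 genes, so the WT cells were read more deeply. At these depths 3 UMIs correspond to a level of 0.00570 in gnrh3-/- and 0.00788 in WT LH gonadotropes. Ratios were taken from summed UMIs, a count of 0 was set at 3 UMIs and the ratio then called a bound, and the 95% intervals in brackets are exact binomial intervals that cover counting error only. Of the cell barcodes, 1 occurred in both libraries. The targeted gene, gnrh3, was not analysed here, so the counts give no check of the genotype labels.

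The cells carried the markers of their label. The level of lhb was 627 in gnrh3-/- and 900 in WT LH gonadotropes, against 57.9 in gnrh3-/- and 82.0 in WT FSH gonadotropes. Every LH gonadotrope had lhb, and the cell with the least had a level of 62.5 in the gnrh3-/- library and 74.4 in the WT library. The receptor gene gnrhr2 had UMIs in 73.0% of gnrh3-/- and 86.6% of WT LH gonadotropes, against 2.14% of gnrh3-/- and 1.30% of WT FSH gonadotropes. The PACAP-family peptide gene adcyap1b had a level of 3.10 in gnrh3-/- and 5.81 in WT LH gonadotropes. In FSH gonadotropes adcyap1b stood at 0.329 in gnrh3-/- and 0.793 in WT, and in her6+ cells, a non-endocrine type of the annotation, it had no UMI. Markers of blood, immune and endothelial cells summed to a level of 0.0475 in gnrh3-/- and 0.00526 in WT LH gonadotropes, with 10 of the 19 listed at 0. Hormone genes of other pituitary types summed to 272 in gnrh3-/- and 25.1 in WT LH gonadotropes, and one such gene took over 5% of the UMIs in 29 gnrh3-/- and 2 WT cells.

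The alpha subunit showed a contrast between its copies. The annotation holds an entry named cga (ENSDARG00000040479) and another named CGA (ENSDARG00000103345), and reads of near-identical copies may be split between them with error. For cga the level was 640 in gnrh3-/- and 833 in WT LH gonadotropes, against 540 in gnrh3-/- and 661 in WT FSH gonadotropes, a log2 ratio of 0.24 [0.24, 0.25] in the gnrh3-/- library and 0.33 [0.33, 0.34] in the WT library. For CGA it was 91.1 in gnrh3-/- and 183 in WT LH gonadotropes, against 308 in gnrh3-/- and 449 in WT FSH gonadotropes. The ratio for CGA was thus below 0, at -1.76 [-1.77, -1.74] in the gnrh3-/- library and -1.30 [-1.31, -1.28] in the WT library. Both copies were read in nearly all gonadotropes of either kind. The median LH gonadotrope had a CGA level of 66.9 in the gnrh3-/- library and 125 in the WT library, and the median FSH gonadotrope 255 in the gnrh3-/- library and 375 in the WT library.

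**Figure D1:**
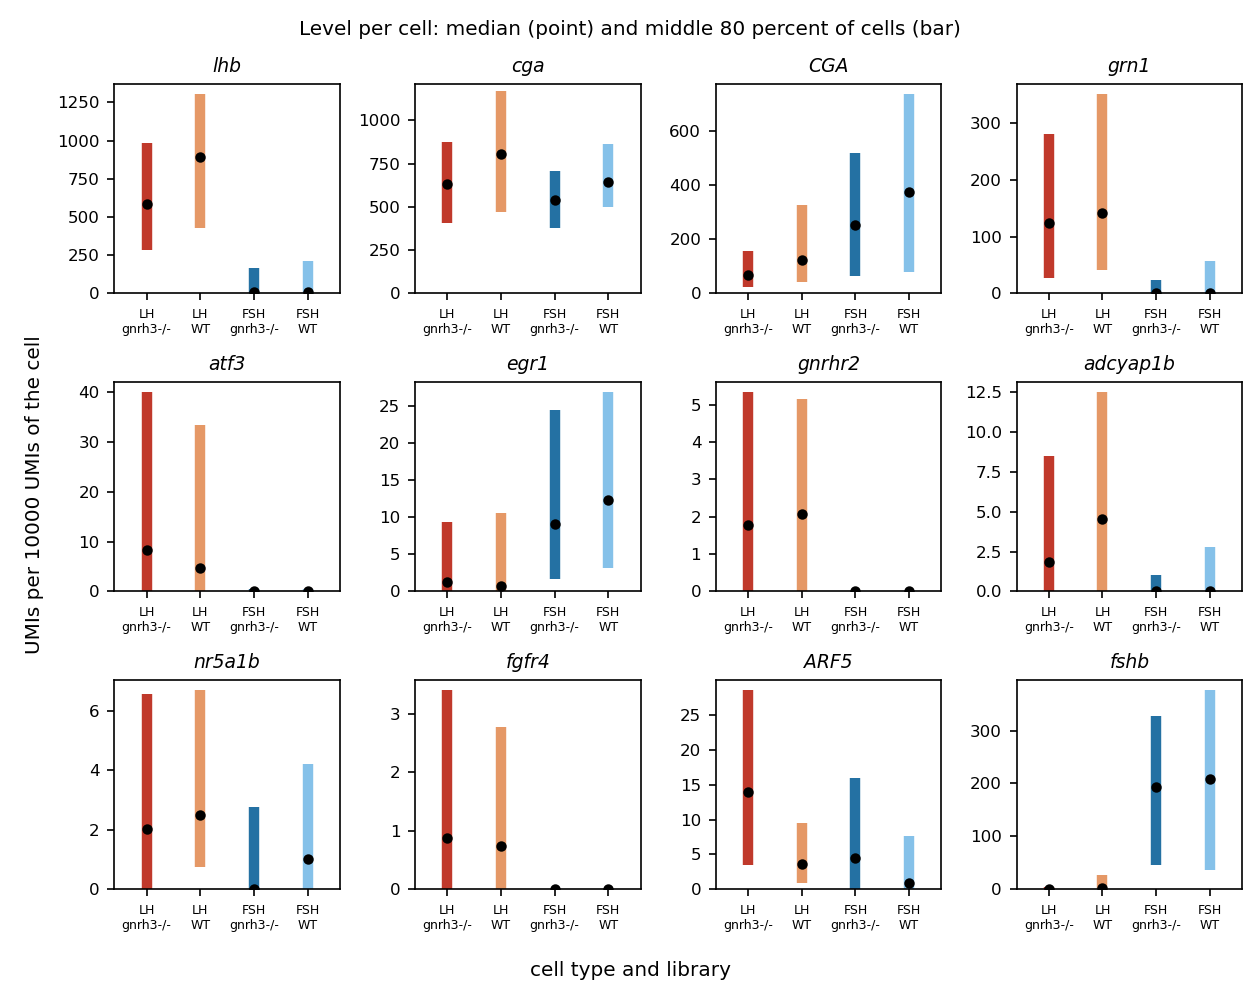
Level per cell of 12 genes, in UMIs per 10000 UMIs of the cell, in LH gonadotropes (603 gnrh3-/- and 232 WT cells) and FSH gonadotropes (794 gnrh3-/- and 231 WT cells). Points are medians over cells and bars run from the lowest to the highest of the middle 80 percent, which is a spread over cells and not over animals. The bars of lhb and grn1 lie high in LH gonadotropes of both libraries, while those of CGA, egr1 and fshb lie higher in FSH gonadotropes.

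Across all genes the LH gonadotropes resembled FSH gonadotropes most. Over 10438 genes, the Pearson correlation of log2 levels (pseudocount 0.1) with FSH gonadotropes was 0.924 in the gnrh3-/- library and 0.928 in the WT library. The next types were thyrotropes, at 0.873 in the gnrh3-/- library and 0.840 in the WT library, and somatotropes alpha, at 0.868 in the gnrh3-/- library and 0.843 in the WT library. Corticotropes were the least alike, at 0.811 in the gnrh3-/- library and 0.782 in the WT library. These correlations run across genes of shared libraries, and genes are not independent replicates.

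Against FSH gonadotropes, 442 of 6685 genes with at least 50 UMIs over both types in each library were at least 2-fold higher in LH gonadotropes in both libraries (6.61% of the genes compared). In the other direction 356 genes were at least 2-fold lower in both libraries (5.33%). The direction was the same in the 2 libraries for 5161 of the 6685 genes, and the median log2 ratio was 0.04 in the gnrh3-/- library and -0.02 in the WT library. Since the cells were grouped on these same genes, the counts describe the clusters and do not test them, and no gene list was tested against other genes. The minimum of 50 UMIs was taken over both types, so a gene could pass it through the type where it was high. Shares of lists with few genes compared depend on this most. A stricter set, of genes at least 2-fold higher in LH gonadotropes than in each of the other 9 endocrine types in both libraries, held 131 of 7397 genes (1.77%), and 103 of the 131 were also among the 442. FSH gonadotropes were the next highest type for 46 of the 131 in the gnrh3-/- library and 55 in the WT library, and somatolactotropes alpha for 21 in either library.

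**Figure D2:**
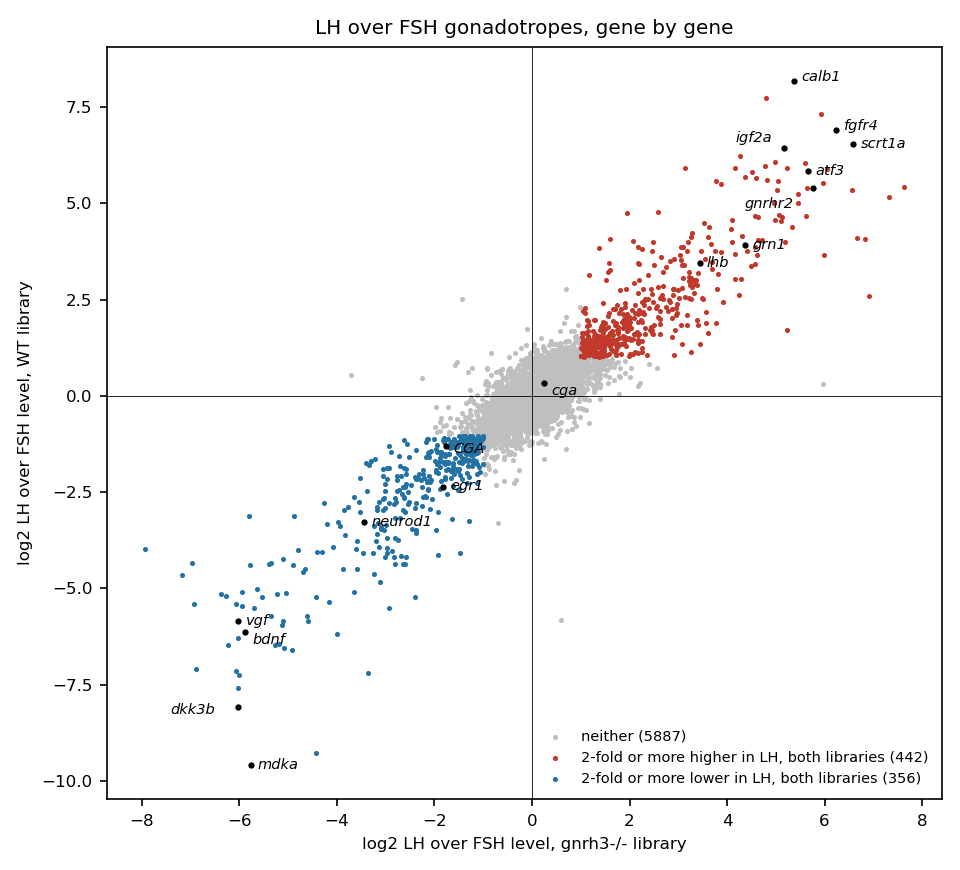
Each point is 1 of 6685 genes, placed by its log2 ratio of LH over FSH gonadotropes in the gnrh3-/- library (x axis) and in the WT library (y axis), with counts of 0 set at 3 UMIs. The 442 genes at least 2-fold higher in both libraries are red and the 356 at least 2-fold lower are blue, with lhb, grn1, fgfr4 and atf3 towards the upper right and mdka, dkk3b, vgf and bdnf towards the lower left.

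Among the 442 genes, the granulin gene grn1 had the highest level after lhb. The level of grn1, a granulin of secreted and lysosomal growth-modulating proteins, was 129 in gnrh3-/- and 160 in WT LH gonadotropes, against 6.24 in gnrh3-/- and 10.6 in WT FSH gonadotropes. The log2 ratio was 4.37 [4.33, 4.41] in the gnrh3-/- library and 3.92 [3.88, 3.97] in the WT library. Outside the gonadotropes grn1 lay between 0.0934 and 2.31 in the other 8 endocrine types of the gnrh3-/- library, and between 0.0440 and 0.490 in those of the WT library. The order of types was therefore LH gonadotropes, FSH gonadotropes and then all others in both libraries. This gene and its relative grn2, with a level of 0.133 in gnrh3-/- and 0.210 in WT LH gonadotropes, were singled out after their values were seen.

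The receptor tyrosine kinase gene fgfr4, which binds fibroblast growth factors, had 598 UMIs (level 1.14) in gnrh3-/- and 379 UMIs (level 0.996) in WT LH gonadotropes. FSH gonadotropes had 11 UMIs in the gnrh3-/- library and 0 in the WT library, which puts the log2 ratio at 6.22 [5.38, 7.24] in gnrh3-/- and at least 6.89 in WT. It was read in 55.6% of gnrh3-/- and 65.5% of WT LH gonadotropes. Among endocrine types fgfr4 was thus close to restricted to LH gonadotropes, but her6+ cells had a level of 1.25 in the gnrh3-/- library and 1.44 in the WT library. A like distribution was seen for cdon, a surface co-receptor for Hedgehog ligands, with a level of 0.519 in gnrh3-/- and 0.455 in WT LH gonadotropes. Its her6+ cells stood at 0.388 in the gnrh3-/- library and 0.270 in the WT library, and its FSH gonadotropes had 4 UMIs in either library.

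Growth factor genes stood on both sides. The level of igf2a, an insulin-like growth factor, was 0.849 in gnrh3-/- and 0.972 in WT LH gonadotropes, against 0.0235 in gnrh3-/- and 0.0112 in WT FSH gonadotropes. It was read in 27.4% of gnrh3-/- and 34.9% of WT LH gonadotropes, so most LH cells showed none at this depth. The level of nrg1, an ErbB ligand, was 0.199 in gnrh3-/- and 0.229 in WT LH gonadotropes, and its log2 ratio over FSH gonadotropes was 2.59 [1.94, 3.29] in the gnrh3-/- library and 4.77 [3.18, 7.08] in the WT library. On the low side stood mdka, which encodes the heparin-binding factor midkine, with 0.365 in gnrh3-/- and 0.0263 in WT LH gonadotropes, against 19.9 in gnrh3-/- and 20.1 in WT FSH gonadotropes. The neurotrophin gene bdnf was read at 0.0190 in gnrh3-/- and 0.0158 in WT LH gonadotropes, against 1.12 in gnrh3-/- and 1.11 in WT FSH gonadotropes. Of the 8 secreted peptides and growth factors compared, 3 were higher in LH gonadotropes (adcyap1b, igf2a, nrg1) and 5 were lower (bdnf, mdka, cart3, fgf13a, ptn). These are 37.5% and 62.5% of the genes compared, against 6.61% and 5.33% of all genes. The list had 92 genes in the matrix, and some of the 8, such as bdnf and mdka, passed the minimum of UMIs through FSH gonadotropes. The shares therefore say little of the list as a whole. The median log2 ratio was -1.41 in the gnrh3-/- library and -1.50 in the WT library.

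Several of the most LH-enriched genes encode enzymes and calcium-binding proteins. For capn8, a calcium-dependent protease of the calpain family, the level was 0.821 in gnrh3-/- and 0.360 in WT LH gonadotropes, with 3 UMIs in gnrh3-/- and 0 in WT FSH gonadotropes. The log2 ratio of capn8 was 7.63 [6.07, 9.91] in the gnrh3-/- library and at least 5.43 in the WT library. The calcium buffer calb1 had a level of 2.23 in gnrh3-/- and 1.61 in WT LH gonadotropes, against 0.0538 in gnrh3-/- and 0.00559 in WT FSH gonadotropes. Corticotropes were the next type for calb1, 1.14 lower on the log2 scale in the gnrh3-/- library and 1.27 lower in the WT library. The calcium-binding protein gene s100b, a folliculostellate marker in mammals, had a level of 0.853 in gnrh3-/- and 0.778 in WT LH gonadotropes, against 0.0359 in gnrh3-/- and 0.0307 in WT FSH gonadotropes. It was present in 26.7% of gnrh3-/- and 24.6% of WT LH gonadotropes, and its list of pituicyte, folliculostellate and progenitor markers, to which it contributed most, summed to 1.44 in gnrh3-/- and 1.02 in WT LH gonadotropes, with 1 of its 13 members at 0. The other listed marker that could be compared, vim, an intermediate filament gene, was lower, with 0.0665 in gnrh3-/- and 0.0841 in WT LH gonadotropes, against 0.210 in gnrh3-/- and 0.327 in WT FSH gonadotropes. The part of such cells in the s100b value was not tested.

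The gene si:dkey-256h2.1, for which the files give no function, was read in nearly all LH gonadotropes. Its level was 8.67 in gnrh3-/- and 7.69 in WT LH gonadotropes, against 0.306 in gnrh3-/- and 0.159 in WT FSH gonadotropes, and it had UMIs in 97.3% of gnrh3-/- and 97.4% of WT LH gonadotropes. The level of cpn1, the catalytic subunit of carboxypeptidase N, was 1.59 in gnrh3-/- and 1.46 in WT LH gonadotropes, against 0.0483 in gnrh3-/- and 0.0307 in WT FSH gonadotropes. The non-endocrine her6+ cells had more cpn1, with a median per cell of 1.93 in gnrh3-/- and 2.14 in WT. The median LH gonadotrope had 1.09 in gnrh3-/- and 1.02 in WT. For aldh1a2, which makes retinoic acid, the level was 0.384 in gnrh3-/- and 0.0920 in WT LH gonadotropes. Its next endocrine type in both libraries was FSH gonadotropes, with 8 UMIs in gnrh3-/- and 2 in WT. Both si:dkey-256h2.1 and cpn1 were thus read at close levels in the 2 libraries, while aldh1a2 was 2.06 [1.54, 2.62] higher on the log2 scale in gnrh3-/- than in WT LH gonadotropes. The N-acetylaspartate synthase gene nat8l had a level of 2.89 in gnrh3-/- and 1.56 in WT LH gonadotropes, and a log2 ratio over FSH gonadotropes of 5.10 in the gnrh3-/- library and 4.54 in the WT library.

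A gene best known from immune cells was among the 20 most LH-enriched. The MHC class II gene mhc2a, whose mammalian relatives present antigen, had a level of 1.93 in gnrh3-/- and 3.44 in WT LH gonadotropes, against 0.0621 in gnrh3-/- and 0.106 in WT FSH gonadotropes. No member of the list of blood, immune and endothelial markers had enough UMIs to be compared between the gonadotropes, and the list summed to 0.153 in gnrh3-/- and 0.0419 in WT FSH gonadotropes, above the sums given earlier for LH gonadotropes. Other genes of this group by the naming rule were fxyd6, a regulator of the sodium pump, the actin gene ACTC1, the tetraspanin gene rom1b, the microtubule regulator stmn4, the receptor gene acvrl1, the thioredoxin gene txn and the transcriptional repressor scrt1a. Of these, txn was higher in corticotropes than in LH gonadotropes of the WT library (log2 ratio -1.04), and scrt1a and stmn4 were nearly as high in another type of that library (0.09 and 0.04 over the next type).

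**Figure D3:**
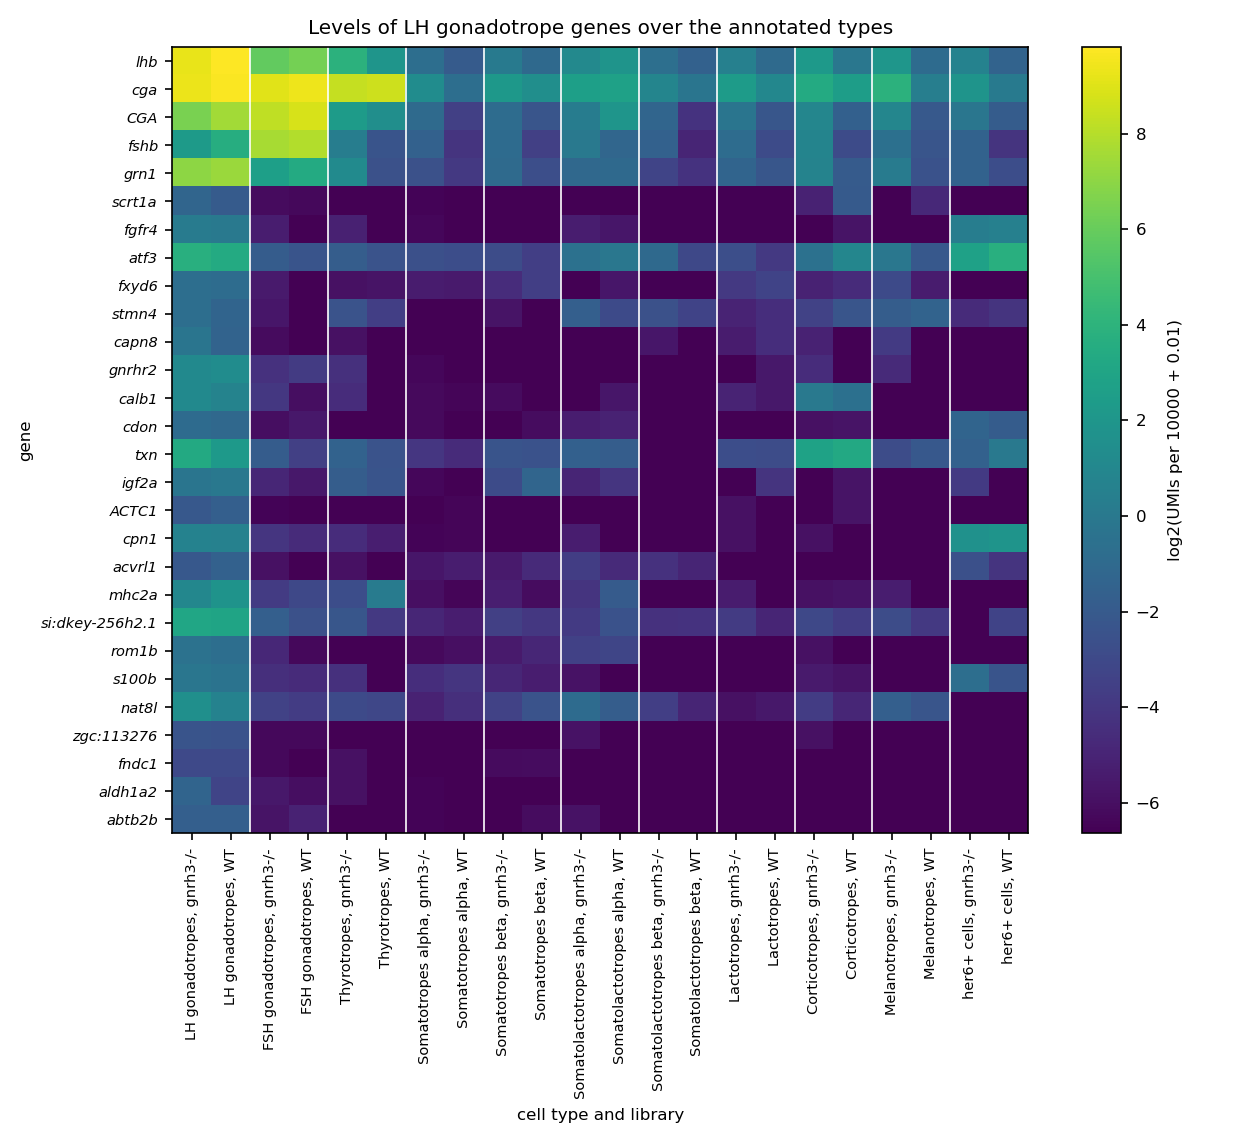
Colour gives log2(level + 0.01), with the level in UMIs per 10000, of the subunit genes, grn1 and the genes named as highest in LH gonadotropes over FSH gonadotropes or over the next endocrine type (rows), in each annotated type and library (columns, gnrh3-/- left of WT). The LH columns are the brightest for most rows, while fgfr4, cdon, cpn1 and atf3 also show in her6+ cells, and txn and calb1 in corticotropes.

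Transcription factors of the pituitary and gonadotrope lineage differed little as a group. Of 15 compared, 2 were higher (13.3%, against 6.61% of all genes) and 1 was lower (6.67%, against 5.33%) in LH gonadotropes, with a median log2 ratio of -0.13 in the gnrh3-/- library and -0.03 in the WT library. The steroidogenic factor gene nr5a1b had a level of 2.71 in gnrh3-/- and 3.29 in WT LH gonadotropes, against 0.763 in gnrh3-/- and 1.30 in WT FSH gonadotropes. The homeobox gene six3b had a level of 0.967 in gnrh3-/- and 0.930 in WT LH gonadotropes, against 0.396 in gnrh3-/- and 0.411 in WT FSH gonadotropes, although somatolactotropes alpha had more of it than either. The proneural factor neurod1 was the lower member, at 0.319 in gnrh3-/- and 0.305 in WT LH gonadotropes, against 3.48 in gnrh3-/- and 2.97 in WT FSH gonadotropes. Its log2 ratio was -3.45 [-3.68, -3.22] in the gnrh3-/- library and -3.29 [-3.57, -3.01] in the WT library.

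Immediate early genes, which are induced within minutes of stimulation, were more often lower than higher among members past 2-fold in both libraries. Of 25 compared, 2 were higher in LH gonadotropes (8%, against 6.61% of all genes) and 7 were lower (28%, against 5.33%). The median log2 ratio was 0.44 in the gnrh3-/- library and -0.41 in the WT library, so the direction of the whole list differed between libraries. The stress-inducible factor atf3 had a level of 13.3 in gnrh3-/- and 10.5 in WT LH gonadotropes, against 0.262 in gnrh3-/- and 0.184 in WT FSH gonadotropes. It was read in 81.6% of gnrh3-/- and 82.8% of WT LH gonadotropes, against 10.7% of gnrh3-/- and 10.8% of WT FSH gonadotropes. Thinned to 2000 UMIs per cell, the shares were 62.8% in gnrh3-/- and 57.8% in WT LH gonadotropes. Among her6+ cells atf3 was read, before thinning, in 37.5% of gnrh3-/- and 64.9% of WT cells, so it was not particular to LH gonadotropes. The activity-regulated factor npas4a was the other higher member, at 5.13 in gnrh3-/- and 3.83 in WT LH gonadotropes, against 0.682 in gnrh3-/- and 1.84 in WT FSH gonadotropes. The lower members were the zinc finger genes egr1, egr2a, egr3 and egr4, the AP-1 gene fosb and the MAP kinase phosphatase genes dusp2 and dusp5. For egr1 the level was 2.75 in gnrh3-/- and 2.50 in WT LH gonadotropes, against 9.75 in gnrh3-/- and 12.8 in WT FSH gonadotropes.

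Signalling genes were mixed. In the Gq and calcium branch, 2 of 29 genes were higher in LH gonadotropes (6.90%, close to the 6.61% of all genes) and 4 were lower (13.8%, against 5.33%), with a median of -0.21 in the gnrh3-/- library and 0.02 in the WT library. The phospholipase gene plcb3 had a level of 0.465 in gnrh3-/- and 0.441 in WT LH gonadotropes, against 0.160 in gnrh3-/- and 0.212 in WT FSH gonadotropes. Calmodulin genes stood on both sides, since calm3a.1 had a level of 3.72 in gnrh3-/- and 2.93 in WT LH gonadotropes, against 1.62 in gnrh3-/- and 1.38 in WT FSH gonadotropes, while calm1a had 3.65 in gnrh3-/- and 3.12 in WT LH gonadotropes, against 17.7 in gnrh3-/- and 14.2 in WT FSH gonadotropes. In the cAMP branch, 4 of 21 genes were higher (19.0%, against 6.61% of all genes) and 2 were lower (9.52%, against 5.33%). The Rap1 GTPase-activating protein gene rap1gap had a level of 1.46 in gnrh3-/- and 1.30 in WT LH gonadotropes, with a log2 ratio of 4.16 [3.78, 4.57] in the gnrh3-/- library and 3.69 [3.20, 4.22] in the WT library. For pde4ba, a phosphodiesterase that degrades cAMP, the level was 1.88 in gnrh3-/- and 2.12 in WT LH gonadotropes, against 0.218 in gnrh3-/- and 0.201 in WT FSH gonadotropes. Both rap1gap and pde4ba also stood at least 2-fold above every other endocrine type in both libraries.

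Receptor lists were read at low levels. Of 88 neuropeptide and amine receptor genes found in the matrix, 60 had no UMI in LH gonadotropes of either library. Only 6 could be compared with FSH gonadotropes, of which 2 were higher and 2 were lower (33.3% each, against 6.61% and 5.33% of all genes). Of 6 GABA and glutamate receptor genes compared, 0 were higher and 2 were lower (33.3%, against 5.33%). The AMPA receptor subunit gene gria1a had 23 UMIs in the LH gonadotropes of either library, against 257 in gnrh3-/- and 164 in WT FSH gonadotropes, and the metabotropic glutamate receptor gene grm5a had 4 UMIs in gnrh3-/- and 6 in WT LH gonadotropes, against 191 in gnrh3-/- and 107 in WT FSH gonadotropes. Both passed the minimum of UMIs through FSH gonadotropes, so the shares of these receptor lists say little of the lists as a whole. Steroid and nuclear receptor genes and their cofactors had 5 of 22 members higher (22.7%, against 6.61% of all genes) and 0 lower, namely esr2b, pgr, esrra, thrb and nrip1a. Only pgr, the progesterone receptor gene, was also at least 2-fold above every other endocrine type, with a level of 0.310 in gnrh3-/- and 0.286 in WT LH gonadotropes, against 0.0649 in gnrh3-/- and 0.0642 in WT FSH gonadotropes. In the activin and BMP pathway 5 of 16 genes were higher (31.2%, against 6.61% of all genes) and 4 were lower (25%, against 5.33%). The BMP effector smad5 was on the high side, with a level of 0.703 in gnrh3-/- and 0.620 in WT LH gonadotropes, against 0.173 in gnrh3-/- and 0.226 in WT FSH gonadotropes. On the low side was tgfbr3, the co-receptor betaglycan, with 0.0817 in gnrh3-/- and 0.181 in WT LH gonadotropes, against 0.682 in gnrh3-/- and 0.676 in WT FSH gonadotropes. Among the connexins, which form gap junctions, gjd2b had 44 UMIs in gnrh3-/- and 28 in WT LH gonadotropes and 0 in FSH gonadotropes of either library, and it was higher in melanotropes than in LH gonadotropes.

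Genes of peptide processing stood on both sides. Of 26 secretory granule and processing genes, 4 were higher in LH gonadotropes (15.4%, against 6.61% of all genes) and 6 were lower (23.1%, against 5.33%). The granins and their partner on the high side were chga, with a level of 6.24 in gnrh3-/- and 6.49 in WT LH gonadotropes, against 2.54 in gnrh3-/- and 3.13 in WT FSH gonadotropes, and both scg5 entries. The lower genes included the enzymes that cleave and amidate peptides. For cpe, carboxypeptidase E, the level was 0.161 in gnrh3-/- and 0.158 in WT LH gonadotropes, against 1.34 in gnrh3-/- and 1.23 in WT FSH gonadotropes. For pam, the amidating enzyme, it was 0.610 in gnrh3-/- and 0.757 in WT LH gonadotropes, against 4.20 in gnrh3-/- and 5.14 in WT FSH gonadotropes. The convertase gene pcsk1 had 3 UMIs in gnrh3-/- and 6 in WT LH gonadotropes, against 76 in gnrh3-/- and 57 in WT FSH gonadotropes. The neuropeptide precursor vgf differed most, at 0.0399 in gnrh3-/- and 0.0315 in WT LH gonadotropes, against 2.60 in gnrh3-/- and 1.82 in WT FSH gonadotropes.

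Most exocytosis genes were within 2-fold. Of 34 compared, 4 were higher and 4 were lower in LH gonadotropes (11.8% each, against 6.61% and 5.33% of all genes). The vesicle GTPase gene rab3db had a level of 0.619 in gnrh3-/- and 0.515 in WT LH gonadotropes, against 0.0483 in gnrh3-/- and 0.0335 in WT FSH gonadotropes. Complexins, which clamp SNARE fusion, stood on both sides. The entry cplx2 was higher in LH gonadotropes (log2 ratio 1.88 in the gnrh3-/- library and 1.38 in the WT library). A second entry of that symbol, cplx2.1, was lower (-2.97 in the gnrh3-/- library and -4.08 in the WT library). So was cplx2l (-2.26 in the gnrh3-/- library and -2.38 in the WT library). Genes of glycoprotein folding and glycosylation differed little, with 0 of 50 higher (against 6.61% of all genes) and 1 lower (2%, against 5.33%). The lower gene was mgat1a, an enzyme of N-glycan branching. Medians of this list were 0.00 in the gnrh3-/- library and -0.01 in the WT library. The list of ion channel genes, which also holds genes of calcium pumps and calcium handling, had 3 of 22 higher (13.6%, against 6.61% of all genes) and 5 lower (22.7%, against 5.33%). The lower members included the calcium pump genes atp2b4 and atp2b1b, so these shares are not those of channels alone. The sodium channel gene scn1lab had a level of 0.857 in gnrh3-/- and 0.752 in WT LH gonadotropes, against 0.305 in gnrh3-/- and 0.271 in WT FSH gonadotropes, while the calcium-activated potassium channel gene kcnma1a had 0.258 in gnrh3-/- and 0.260 in WT LH gonadotropes, against 0.558 in gnrh3-/- and 0.670 in WT FSH gonadotropes. In the adhesion list 3 of 26 genes were higher (11.5%, against 6.61% of all genes) and 2 were lower (7.69%, against 5.33%). The synaptic adhesion gene cadm2b, with a level of 0.291 in gnrh3-/- and 0.184 in WT LH gonadotropes, was also at least 2-fold above every other endocrine type.

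Metabolic genes mostly lay within 2-fold. Of 26 genes of the hypoxia response and glycolysis, 3 were higher (11.5%, against 6.61% of all genes) and 4 were lower (15.4%, against 5.33%) in LH than FSH gonadotropes. The list is related to a process that the study itself examined in these cells, but between genotypes. In that comparison 4 of 29 genes were at least 1.5-fold higher in gnrh3-/- LH gonadotropes (13.8%, against 8.12% of all genes) and 1 was lower (3.45%, against 3.8%). The pyruvate dehydrogenase kinase gene pdk2a had a level of 2.64 in gnrh3-/- and 2.87 in WT LH gonadotropes, against 0.329 in gnrh3-/- and 0.492 in WT FSH gonadotropes. The aldolase gene aldoaa had 1.88 in gnrh3-/- and 1.52 in WT LH gonadotropes, against 12.5 in gnrh3-/- and 8.25 in WT FSH gonadotropes. The glycolytic genes gapdh, pgk1 and eno1b were also lower, and hk1 and pfkfb3 were higher. All 13 mitochondrially encoded genes stayed within 2-fold, with a median log2 ratio of -0.50 in the gnrh3-/- library and -0.33 in the WT library.

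**Figure D4:**
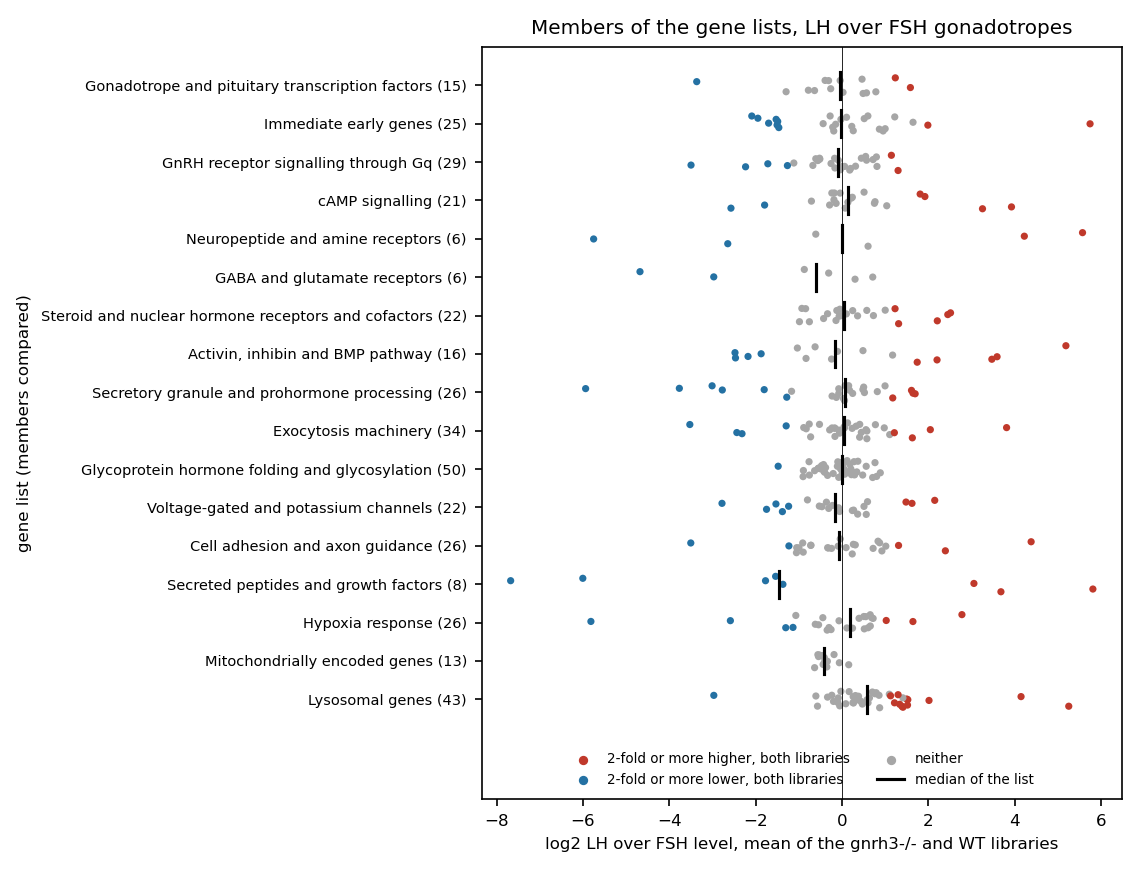
Each point is a gene of a list, placed by its log2 ratio of LH over FSH gonadotropes, averaged over the gnrh3-/- and WT libraries, and each black bar is the median of the list. Points past 2-fold in both libraries are red (higher in LH gonadotropes) or blue (lower). The secretory granule and exocytosis lists have both colours and medians near 0. The median of the lysosomal list lies to the right, and those of the mitochondrial list and of the secreted peptides and growth factors to the left.

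Lysosomal genes were looked at because grn1 led the programme, so this list was drawn up after values were seen. Of 43 genes compared, 12 were at least 2-fold higher in LH gonadotropes (27.9%, against 6.61% of all genes) and 1 was lower, and 31 of the 43 had ratios above 0 in both libraries. Without grn1 and grn2, which prompted the list, 10 of 41 were higher (24.4%) and 1 was lower. Against the other endocrine types the difference was smaller, since only grn1 and grn2 of the 12 were at least 2-fold above each of them, 7 of the 12 were above each of them in both libraries, and 3 (cst3, psap and npc2) were below another type in both. The median log2 ratio was 0.68 in the gnrh3-/- library and 0.47 in the WT library, against 0.04 in gnrh3-/- and -0.02 in WT over all genes compared. Without grn1 and grn2 the list summed to a level of 47.6 in gnrh3-/- and 43.3 in WT LH gonadotropes, against 23.7 in gnrh3-/- and 25.6 in WT FSH gonadotropes. The protease inhibitor gene cst3 made up the largest share, with 20.2 in gnrh3-/- and 19.4 in WT LH gonadotropes, against 7.54 in gnrh3-/- and 8.61 in WT FSH gonadotropes. Somatolactotropes alpha had more cst3 than LH gonadotropes, at 35.97 in gnrh3-/- and 35.43 in WT, as did corticotropes and melanotropes. The cathepsin gene ctsla had 2.097 in gnrh3-/- and 1.39 in WT LH gonadotropes, against 0.620 in gnrh3-/- and 0.567 in WT FSH gonadotropes. More ctsla was read in somatolactotropes alpha of the WT library, at 1.62, and in her6+ cells, at 3.88 in gnrh3-/- and 7.12 in WT. The saposin precursor psap had 2.34 in gnrh3-/- and 1.76 in WT LH gonadotropes, against 0.765 in FSH gonadotropes of either library, while somatolactotropes alpha had 2.97 in gnrh3-/- and 2.84 in WT. The hexosaminidase gene hexb had 0.614 in gnrh3-/- and 0.436 in WT LH gonadotropes, against 0.159 in gnrh3-/- and 0.103 in WT FSH gonadotropes, and lactotropes of the WT library had 0.716. In her6+ cells hexb stood at 0.896 in gnrh3-/- and 1.17 in WT. Of the other granulin genes, grnb was within 2-fold (log2 ratio 0.83 in the gnrh3-/- library and 0.69 in the WT library) and grna was lower, with 0.0304 in gnrh3-/- and 0.0158 in WT LH gonadotropes, against 0.157 in gnrh3-/- and 0.187 in WT FSH gonadotropes.

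The genes lowest in LH relative to FSH gonadotropes mostly had few UMIs in the LH cells. The tryptophan hydroxylase gene tph1b had 3 UMIs in gnrh3-/- and 1 in WT LH gonadotropes, against 487 in gnrh3-/- and 129 in WT FSH gonadotropes, a log2 ratio of -6.88 [-9.16, -5.33] in the gnrh3-/- library and -7.10 [-12.41, -4.60] in the WT library. The Dickkopf-family gene dkk3b had a level of 0.123 in gnrh3-/- and 0.0289 in WT LH gonadotropes, against 8.02 in gnrh3-/- and 7.77 in WT FSH gonadotropes. The fibroblast growth factor gene fgf8a had 0.0247 in gnrh3-/- and 0.0499 in WT LH gonadotropes, against 1.66 in gnrh3-/- and 2.12 in WT FSH gonadotropes. The others of this group were the monocarboxylate transporter gene slc16a1a, the cytochrome P450 gene cyp2k22, alkaline phosphatase (alpl), the carbonic anhydrase relative ca10a, FP102018.1, zgc:154006 and the genes vgf, bdnf and mdka described above.

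LH gonadotropes were not uniform in all of these genes. Variation over cells was measured as overdispersion, the squared spread beyond counting error relative to the squared mean, in 1285 genes with a mean of at least 0.5 UMIs per cell. Its median was 0.138 in the gnrh3-/- library and 0.114 in the WT library. For lhb it was 0.248 in gnrh3-/- and 0.141 in WT LH gonadotropes, and for grn1 it was 0.506 in gnrh3-/- and 0.430 in WT. The 4 most variable genes, prl, pomca, gh1 and tshba, are hormone genes of other types, and in the WT library between 69.1% and 85.5% of their UMIs lay in 1 cell. Of the rest, phlda2 was read in 10.4% of gnrh3-/- and 10.8% of WT LH gonadotropes and had an overdispersion of 26.6 in gnrh3-/- and 18.2 in WT. It is a gene of FSH gonadotropes here, with a level of 12.9 in gnrh3-/- and 12.3 in WT FSH gonadotropes, against 0.597 in gnrh3-/- and 0.331 in WT LH gonadotropes. The metallothionein gene mt2, the signalling regulator rgs16, the stress-response gene gadd45bb, egr2b and BX855618.1 completed the 10 by the naming rule.

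Several LH-enriched genes were read in a minority of LH cells, among them capn8, s100b and igf2a, with overdispersions of 4.31 in gnrh3-/- and 7.07 in WT for capn8, 3.13 in gnrh3-/- and 5.96 in WT for s100b, and 3.19 in gnrh3-/- and 3.11 in WT for igf2a. For each of them most LH gonadotropes had no UMI, and the cells at the 90th percentile of igf2a stood at 2.87 in the gnrh3-/- library and 3.15 in the WT library. Over 435 pairs of 30 variable genes, the rank correlation across LH cells was above 0.3 in both libraries for 7 pairs. The closest pairs were egr4 with egr1 (Spearman's rho 0.596 over 603 gnrh3-/- cells and 0.667 over 232 WT cells) and the heat shock genes hsp70l and hsp70.1 (0.517 in gnrh3-/- and 0.771 in WT cells). The other 5 pairs joined members of the egr family, or hsp70.1 with egr4. The points share a library and differ in depth, so the correlations are given as a description.

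The comparison of genotypes asks how LH gonadotropes of the gnrh3-/- library differed from those of the WT library, and genotype and library cannot be told apart in it. Of 7414 genes with at least 50 UMIs, 602 were at least 1.5-fold higher in gnrh3-/- LH gonadotropes (8.12%) and 282 were at least 1.5-fold lower (3.8%), with a median log2 ratio of 0.07. The split leans on the scale, since higher genes made up 68.1% of the 884 with the total of all UMIs, 54.1% with TMM scaling (465 higher and 395 lower) and 58.1% with a total that left the hormone genes out (500 higher and 360 lower). The 442 genes higher in LH than FSH gonadotropes had a median ratio of 0.10, with 48 at least 1.5-fold higher and 29 lower. Of the 131 genes above every other endocrine type, 16 were higher and 24 were lower in gnrh3-/- LH gonadotropes, with a median of 0.01. Those of them that could be compared with FSH gonadotropes had a median of -0.28 there. Genes of this set had few UMIs in FSH gonadotropes by selection, so that median can follow the depth of the libraries. A count of 0, set at 3 UMIs, stands for 0.00414 in gnrh3-/- and 0.00838 in WT FSH gonadotropes. In both sets the shares past 1.5-fold were larger, in either direction, than those of all genes (8.12% higher and 3.8% lower).

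The hormone subunits and gnrhr2 had ratios below 0. The log2 ratio of gnrh3-/- over WT was -0.52 [-0.53, -0.52] for lhb, -0.38 [-0.39, -0.37] for cga, -1.01 [-1.02, -0.99] for CGA and -0.20 [-0.32, -0.08] for gnrhr2. In FSH gonadotropes the same ratio was -0.50 for lhb, -0.29 for cga and -0.54 for CGA, so of these genes CGA in LH gonadotropes was the one past 1.5-fold. Of all 6 listed gonadotropin subunits and LH markers, 3 were at least 1.5-fold lower in gnrh3-/- LH gonadotropes (50%, against 3.8% of all genes), namely CGA, fshb and adcyap1b. The count intervals are narrow because these genes are abundant, and they say nothing of the spread between fish.

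The 10 genes highest in gnrh3-/- over WT by the naming rule which ranks them without the cell of each library that had the most UMIs of the gene, began with the hormone genes gh1, smtlb, prl, pomca and tshba and the deiodinase gene dio2, genes of other pituitary types. For dio2 that cell decided the direction, since its log2 ratio was -0.75 with all cells and 3.85 without it. All 5 hormone genes of other types that could be compared were at least 1.5-fold higher in gnrh3-/- LH gonadotropes (100%, against 8.12% of all genes). The rise was not particular to LH gonadotropes, since the median log2 ratio of these genes was larger in FSH gonadotropes, at 3.85. The whole list summed to 272 in gnrh3-/- and 25.1 in WT LH gonadotropes. In FSH gonadotropes these hormone genes summed to 357 in gnrh3-/- and 52.0 in WT. Cells with more than 5% of their UMIs from such a gene were 4.81% of gnrh3-/- and 0.862% of WT LH gonadotropes, and without them 644 genes were higher and 274 lower. The remaining 4 were ARF5, crabp1a, spock3 and si:ch211-114n24.6. The ADP-ribosylation factor gene ARF5, a GTPase of vesicle traffic, had a level of 15.3 in gnrh3-/- and 4.58 in WT LH gonadotropes, and 6.00 in gnrh3-/- and 2.11 in WT FSH gonadotropes. Its log2 ratio was 1.74 [1.67, 1.82] in LH gonadotropes, 1.51 in FSH gonadotropes and had a median of 0.57 over the other 8 endocrine types. The retinoic acid-binding protein gene crabp1a had a level of 0.374 in gnrh3-/- and 0.139 in WT LH gonadotropes, and a ratio of 1.43 in LH and 1.79 in FSH gonadotropes. It was far higher in her6+ cells, at 351 in gnrh3-/- and 438 in WT, and in corticotropes, and the estimated free RNA was 0.805% of the UMIs of gnrh3-/- and 0.299% of those of WT LH gonadotropes. With free RNA subtracted the ratio of crabp1a in LH gonadotropes was 2.09, and the part of these other cells in it was not tested further. The proteoglycan gene spock3 had 0.464 in gnrh3-/- and 0.166 in WT LH gonadotropes, and it was higher in melanotropes and thyrotropes of both libraries. Both ARF5 and crabp1a were therefore also higher in gnrh3-/- FSH gonadotropes.

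The genes lowest in gnrh3-/- over WT included several that FSH gonadotropes did not share. The secreted serpin gene serpinf1 had a level of 0.386 in gnrh3-/- and 1.36 in WT LH gonadotropes (log2 ratio -1.82 [-2.06, -1.59]), and 1.50 in gnrh3-/- and 1.67 in WT FSH gonadotropes (-0.15). The calcineurin regulator gene rcan1a had 0.108 in gnrh3-/- and 0.352 in WT LH gonadotropes, a ratio of -1.70 [-2.17, -1.24], against 0.23 in FSH gonadotropes. The calreticulin-family chaperone gene calr3b had 1.28 in gnrh3-/- and 3.27 in WT LH gonadotropes, a ratio of -1.36, against -0.20 in FSH gonadotropes. In contrast gramd1a, a sterol transporter of the endoplasmic reticulum, was lower in both gonadotropes, with 0.735 in gnrh3-/- and 2.01 in WT LH gonadotropes, and 0.195 in gnrh3-/- and 0.405 in WT FSH gonadotropes. The Ras exchange factor gene rasgrp3, which diacylglycerol activates, had 0.730 in gnrh3-/- and 1.73 in WT LH gonadotropes, a ratio of -1.24 [-1.43, -1.06], against -0.59 in FSH gonadotropes. The difference between the gonadotropes was not tested for any of these genes. The rest of the 10 were fshb, si:ch73-314g15.3, the small heat shock gene cryabb, the folate enzyme gene mthfd2 and the sulfotransferase gene chst1.

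Of 52 folding and glycosylation genes, 5 were at least 1.5-fold lower (9.62%, against 3.8% of all genes) and 2 were higher (3.85%, against 8.12%) in gnrh3-/- LH gonadotropes. Besides calr3b, the lower members were calr3a, pdia3, herpud1 and edem1, which act in folding and quality control in the endoplasmic reticulum. The disulfide isomerase gene pdia3 had a level of 17.7 in gnrh3-/- and 27.53 in WT LH gonadotropes, and 16.9 in gnrh3-/- and 20.9 in WT FSH gonadotropes, a log2 ratio of -0.64 [-0.68, -0.60] in LH and -0.30 in FSH gonadotropes. The higher members were the oxidase gene ero1a and mgat1a, and ero1a, with 104 UMIs in gnrh3-/- and 7 in WT LH gonadotropes, was also higher in gnrh3-/- FSH gonadotropes (log2 ratio 5.08). The median over the 52 was -0.06. The stress-inducible gene nupr1b, named after its values were seen, had a level of 1.58 in gnrh3-/- and 3.50 in WT LH gonadotropes, a ratio of -1.14 [-1.27, -1.02], against -0.18 in FSH gonadotropes.

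Between genotypes, most immediate early genes lay on opposite sides of 0 in LH and FSH gonadotropes. In LH gonadotropes 21 of the 25 had a log2 ratio of gnrh3-/- over WT above 0, with 9 at least 1.5-fold higher (36%, against 8.12% of all genes) and 0 lower (against 3.8%), and a median of 0.52. In FSH gonadotropes 18 of the 25 had a ratio below 0, with 7 at least 1.5-fold lower and 0 higher. The median there was -0.39, against 0.004 over all genes compared. The shares of all genes past 1.5-fold were taken in LH gonadotropes only, so the FSH counts stand without one. For 16 genes the ratio was above 0 in LH and below 0 in FSH gonadotropes, and the difference between the types was not tested. The share of all genes with such opposite ratios was not taken either, so this count is not read as particular to the list. The list summed to a level of 122 in gnrh3-/- and 84.0 in WT LH gonadotropes, and to 82.9 in gnrh3-/- and 116 in WT FSH gonadotropes. The sum thus stood higher in LH than in FSH gonadotropes of the gnrh3-/- library and lower in those of the WT library.

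The AP-1 gene fosab had a level of 16.0 in gnrh3-/- and 9.02 in WT LH gonadotropes (log2 ratio 0.83), and 9.08 in gnrh3-/- and 16.5 in WT FSH gonadotropes (-0.86). The early response gene ier2b had 12.01 in gnrh3-/- and 6.27 in WT LH gonadotropes (0.94), and 2.65 in gnrh3-/- and 5.24 in WT FSH gonadotropes (-0.98). The member with the highest level in LH gonadotropes, jun, had 22.5 in gnrh3-/- and 15.8 in WT LH gonadotropes (0.51), and 7.64 in gnrh3-/- and 12.4 in WT FSH gonadotropes (-0.71). Some members lay on the same side, since atf3 was higher in the gnrh3-/- library in both gonadotropes and egr3 lower in both. The median ratio over the list also varied between the other endocrine types, from -0.37 in somatotropes beta to 0.49 in somatolactotropes beta. Cells spread widely, since the sum per LH cell had a median of 121 in gnrh3-/- and 54.3 in WT, with 10th to 90th percentiles of 20 to 279 in gnrh3-/- and 12.7 to 248 in WT. The count of members at least 1.5-fold higher in gnrh3-/- LH gonadotropes was 3 with the mean of per-cell shares and 5 with TMM scaling, and the part of depth or dissociation in these values was not tested.

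**Figure D5:**
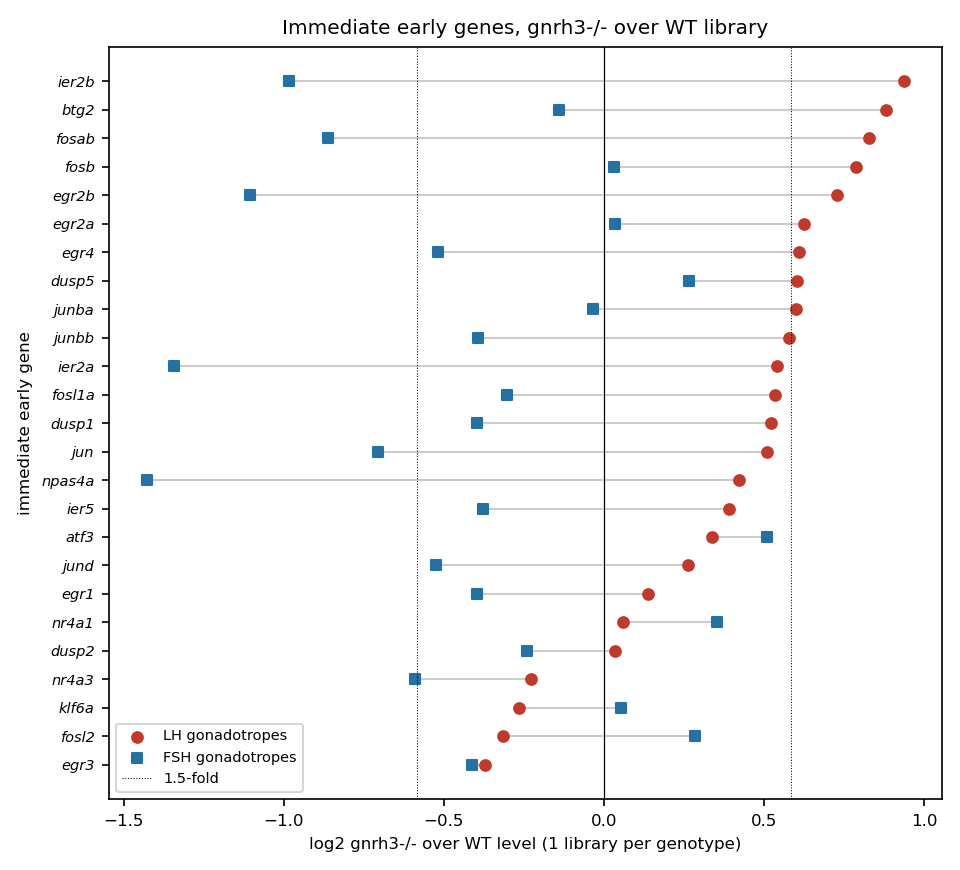
Log2 ratio of the level in the gnrh3-/- library over that in the WT library (x axis) for each of 25 immediate early genes (y axis), in LH gonadotropes (red circles) and FSH gonadotropes (blue squares), with dotted lines at 1.5-fold and 1 library per genotype. The circles lie right of 0 for 21 genes and the squares left of 0 for 18.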

How the data were processed

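Pituitary cells of gnrh3-/- and WT females were measured by droplet 3′ RNA sequencing after dissociation with trypsin and collagenase, 1 library per genotype. With Cell Ranger 6.0.2 and GRCz11 the authors aligned and counted the reads, then integrated and clustered the cells with Seurat 4, and they deposited UMI counts per gene and cell, the counts of all barcodes and the cell annotation, whose deposited per-cell depth and gene numbers and other columns (genotype, cluster, mitochondrial percent) served only to map the cells. The counts of both kinds of matrix were identical for the annotated cells (0 entries differed). Values of 1 annotated type and of 1 gene are not reported here, and promoter motifs and protein sequences were not analysed here.

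From the counts, UMIs were summed per type and library over 25432 genes (Python 3.11.15, numpy 2.4.6, scipy 1.17.1, pandas 2.3.3, and edgeR 4.0.16 in R 4.3.3 for TMM factors only). A gene was compared with FSH gonadotropes where it had at least 50 UMIs over both types in each library, with every endocrine type where LH gonadotropes had at least 50 in all and 10 in each library, and between genotypes where they had at least 50 in all. It was counted past 2-fold (types, both libraries) or 1.5-fold (genotypes). Scripts were tested on simulated data. The LH gonadotropes and the 23 gene lists, of which 1072 of 1162 symbols were matched, were chosen with earlier results of these data known, and the lysosomal list after values were seen. Named genes were the markers, the 20 highest and 12 lowest in LH over FSH gonadotropes by the less extreme library (at least 100 UMIs in each), the 12 highest over the next endocrine type, the 3 highest and 2 lowest of each list, the 10 highest and lowest between genotypes without the cell with the most UMIs, the extremes of each list between genotypes and the 10 most variable genes. Not all genes that the rule names are discussed, and others were chosen after their values were seen.

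No doublet caller was run. Cells with over 5% of UMIs from another type's hormone gene, or with both beta subunits (fshb over 0.25% in LH, lhb over 1% in FSH gonadotropes), were left out as alternatives. The profile of free RNA came from 71649 empty droplets of the gnrh3-/- and 76792 of the WT library (10 to 100 UMIs each). Its share was the median over gh1, prl, pomca and smtlb, whose UMIs in all but the cells richest in each gene were taken as free RNA. It amounted to 0.805% of the UMIs of gnrh3-/- and 0.299% of those of WT LH gonadotropes. The estimate thus rests on these hormone genes and is no separate measure of their rise. Subtraction of free RNA was another alternative.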

Additional observations from a re-analysis of the deposited data

Results flagged for a closer look

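For 5 of the named genes the log2 ratio of gnrh3-/- over WT went past 1.5-fold in opposite directions in LH and FSH gonadotropes, with 1 library per genotype, and the difference was not tested. The genes searched were those named for an extreme ratio between genotypes in LH gonadotropes. The share of all genes with such opposite ratios was not taken. The calcium pump gene atp2a2a had a ratio of 0.714 in LH gonadotropes (59 UMIs in gnrh3-/- and 26 in WT) and -1.65 in FSH gonadotropes (9 UMIs in gnrh3-/- and 14 in WT). The BMP target id2b had 1.01 in LH gonadotropes (164 UMIs in gnrh3-/- and 59 in WT) and -2.52 in FSH gonadotropes (6 UMIs in gnrh3-/- and 17 in WT). Both rest on few UMIs in FSH gonadotropes. The early response gene ier2b had 0.938 in LH and -0.985 in FSH gonadotropes, with 6322 UMIs in gnrh3-/- and 2385 in WT LH gonadotropes, and 1917 in gnrh3-/- and 1875 in WT FSH gonadotropes. In the other direction stood cremb, a cAMP-responsive modulator gene, with -0.696 in LH and 0.969 in FSH gonadotropes, and the small heat shock gene cryabb, with -1.35 in LH gonadotropes (108 UMIs in gnrh3-/- and 199 in WT) and 1.12 in FSH gonadotropes (57 UMIs in gnrh3-/- and 13 in WT), so it too rests on few UMIs in FSH gonadotropes.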

How the results depend on the processing

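The minimum of 50 UMIs per gene set the size of the counts most. With a minimum of 20 UMIs, 699 genes were at least 2-fold higher and 553 lower in LH than FSH gonadotropes, and 1252 were at least 1.5-fold higher and 605 lower in gnrh3-/- than WT LH gonadotropes. With 200 UMIs these counts were 171, 148, 132 and 58, and 71 genes stood above every other endocrine type. With 1 UMI they were 1347, 1058, 3057 and 2955. The gnrh3-/- library alone put 201 genes above every other endocrine type, against 131 in both libraries. The ratio of each named gene was taken again under each alternative, and each such value was counted. Between the gonadotropes either library alone was included, and 1 of these equals the main value by construction. There 1055 values stayed within their counting interval and 143 moved further. Another 2 changed sign, both for tshba, at 2.56 without cells with another hormone gene over 5% and 0.43 without the cell with the most UMIs. Between genotypes 693 values stayed within it, 66 moved further and 1 changed sign, dio2, at 3.85 without the cell with the most UMIs. Sign changes were counted only for genes past the fold, so those of other genes are not in these numbers. No scaling shifted the median of all genes by more than 0.1 on the log2 scale. The alternatives for immediate early and lysosomal genes were chosen after seeing the data. The median over immediate early genes between genotypes ran from 0.40 to 0.56 in LH gonadotropes and from -0.40 to -0.29 in FSH gonadotropes, and between 12 and 14 lysosomal genes were at least 2-fold higher in LH gonadotropes. No paired analysis was possible because each genotype had 1 library. Depth limits what can be said of genes with few UMIs in either type, for which a count of 0 allows up to 3 UMIs.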
